A study of Arabidopsis thaliana with 8 samples.

Results

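The bHLH transcription factor URI (bHLH121) works in the iron (Fe) deficiency response of Arabidopsis thaliana. Its signal in root chromatin is described here at 4 genes of nitrate use, namely LBD37 (AT5G67420), LBD38 (AT3G49940), LBD39 (AT4G37540) and NIA2 (AT1G37130). They hold 8 of the 2366 peaks in the authors' deposited table. A peak was counted when it lay within 1500 bp of LBD37, LBD38 or LBD39, or when it was the nearest one up to 3000 bp from NIA2, which has none within 1500 bp. The genes were chosen by what they do in nitrate use, by having a URI peak nearby and with the concentrations and changes of those peaks in both Fe conditions already known. These values are therefore a description, and nothing is read from the p-values or FDRs printed beside them.

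The chromatin came from roots of a complemented uri mutant, exposed for 72 h to sufficient or to deficient Fe. There were 8 libraries by chromatin immunoprecipitation and sequencing (ChIP-seq): 3 with URI and 1 IgG control for each Fe condition. Both conditions share the mutant background and the complementing URI, whose promoter and tag were not given in the sources used here. For each peak, the authors deposited their mean concentration in each Fe condition (log2 of normalised reads), the log2 change, its p-value and its false discovery rate (FDR), but no value per library. The spread between libraries therefore enters only through the deposited p-value, depth is unknown, and p-values may measure technical spread, since nothing says that replicate libraries came from separately grown plants. Every change is given as deficiency minus sufficiency, and concentrations were turned back from log2 into reads.

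Plant roots take up nitrate through transporters of the NRT families. Nitrate reductase, a cytosolic enzyme with a molybdenum cofactor and a haem Fe, turns it into nitrite, and nitrite reductase, a plastid enzyme with sirohaem and an Fe-S cluster, turns nitrite into ammonium, which enters glutamine and glutamate. NIA2 encodes the nitrate reductase that provides most of the activity in Arabidopsis, and NIA1 encodes the other. LBD37, LBD38 and LBD39 are class II proteins of the LOB domain family that are induced by nitrate and other nitrogen compounds. They repress anthocyanin synthesis genes and genes of nitrate uptake and reduction. URI acts with other bHLH proteins of the Fe response and promotes the Ib bHLH genes.

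The regulators LBD37, LBD38 and LBD39 all carried URI peaks that overlap the gene itself, while the NIA2 peak lay 2771 bp beyond the gene end with the higher coordinate. There were 4 peaks at LBD37, 2 at LBD38, 1 at LBD39 and 1 beside NIA2. Of the 27444 protein-coding genes, 11.8% had a peak within 1500 bp, 1.38% had at least 2 and 0.0109% had at least 4. Besides LBD37, the genes with 4 were DREB1A and AT5G01720, named after their counts were seen. Gene positions come from an annotation table that gives no strand, so a promoter and a downstream end cannot be told apart. The midpoint lay inside a protein-coding gene in 1 of the 8 member peaks, against 19.4% of all peaks.

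**Figure D1:**
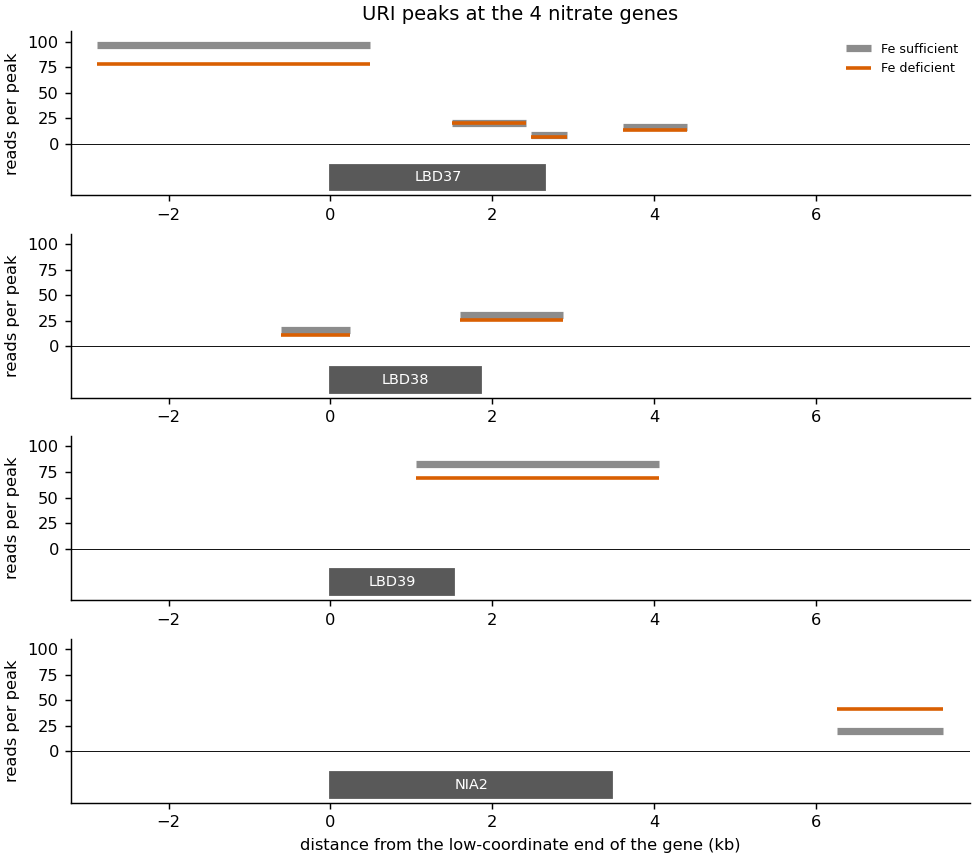
Peaks at the 4 genes, with the distance from the gene end of lower coordinate in kb on the horizontal axis and normalised reads per peak on the vertical axis. Grey bars are Fe sufficiency, orange bars Fe deficiency, and the dark box is the gene. LBD37, LBD38 and LBD39 have peaks over a gene end, and the NIA2 peak lies apart from its gene.

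Summed over its 4 peaks, LBD37 had the most reads of the 4 genes, 143 with sufficient Fe and 119 under deficiency. Per kb of peak it had 23.8 mean reads, against 25.4 for LBD39, 23.3 for NIA2 and 19.9 for LBD38. Its first peak (chromosome 5, 26900987 to 26904357, TAIR10) had 97.0 reads in sufficient roots and 77.7 in deficient ones in the authors' deposited table. This peak is 3370 bp wide, has its midpoint 1194 bp outside the gene on the side of lower coordinate, and reaches 491 bp into it. Another protein-coding gene, AT5G67411, lies 1251 bp from the peak. Only 18 of the 2366 peaks had a higher mean concentration. The deposited log2 change was -0.31 (p = 0.229, FDR 0.432 in the authors' deposited table).

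The other LBD37 peaks were weaker and lay inside the gene or toward its other end. The second (26905372 to 26906281), wholly inside the gene, had 20.5 reads with sufficient Fe and 21.0 under deficiency in the authors' deposited table. The third (26906340 to 26906792), over the gene end of higher coordinate, had 8.51 and 6.63 reads in the authors' deposited table. The fourth (26907488 to 26908275), 964 bp outside that end, had 16.9 and 13.6 reads in the authors' deposited table. The inner peak was nearly level between conditions and the outer ones were lower under deficiency, as were 79.8% of all peaks. Deposited log2 changes were 0.03 (FDR 0.973), -0.36 (FDR 1, set where the concentration was low) and -0.31 (FDR 0.609) in the authors' deposited table. The standard errors used for them were 0.40, 0.53 and 0.42, and the median change of all peaks was -0.46. The difference between the inner and outer peaks was not tested. The first peak held 67.9% of the reads of all 4 peaks with sufficient Fe, and the 4 span 7288 bp.

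LBD39 had 1 wide peak of like strength. It lies over the gene end of higher coordinate (chromosome 4, 17640451 to 17643452), at 82.7 reads in sufficient and 69.6 in deficient roots in the authors' deposited table. It also overlaps the neighbouring gene AT4G37550. The deposited log2 change was -0.25 (p = 0.331, FDR 0.51 in the authors' deposited table), and 25 peaks of the whole table had a higher mean concentration.

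LBD38 had a peak at each end of the gene. The stronger one, at the end of higher coordinate (chromosome 3, 18515870 to 18517140), had 30.9 reads with sufficient Fe and 26.2 under deficiency in the authors' deposited table (log2 change -0.23, FDR 0.603). The weaker one (18513659 to 18514507) had 16.0 and 11.4 reads in the authors' deposited table (log2 change -0.49, FDR 0.496). No other protein-coding gene lies within 1500 bp of either peak. Both were lower under deficiency, as were the LBD39 peak, the first LBD37 peak and 79.8% of all peaks.

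NIA2 had the largest change of the 8 peaks. Its peak (chromosome 1, 14164709 to 14166020) had 20.0 reads with sufficient Fe and 41.1 under deficiency in the authors' deposited table, a 2.06-fold higher signal (log2 change 1.04, p = 0.00586). The deposited FDR of 0.14 in the authors' deposited table did not pass 0.05. NIA2 is the nearest protein-coding gene to the midpoint, and no other annotated gene of any kind lies within 3000 bp of the peak. Only 80 of the 2366 peaks had a higher change. A further peak starts 85 bp beyond it (14166105 to 14167001), nearer to MCT1 and 4167 bp from NIA2, at 16.9 reads in sufficient and 17.1 in deficient roots in the authors' deposited table (log2 change 0.02, FDR 0.966). In the deposited values the signal was thus higher at the NIA2 peak and nearly level at this further peak. Relative to the median change of all peaks (-0.46), the NIA2 peak lay at 1.5 and the further peak at 0.48 (log2). The errors implied by the deposited p-values were 0.38 and 0.42, and the difference between these peaks was not tested. On the side of lower coordinate the nearest peak is 1022923 bp away.

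**Figure D2:**
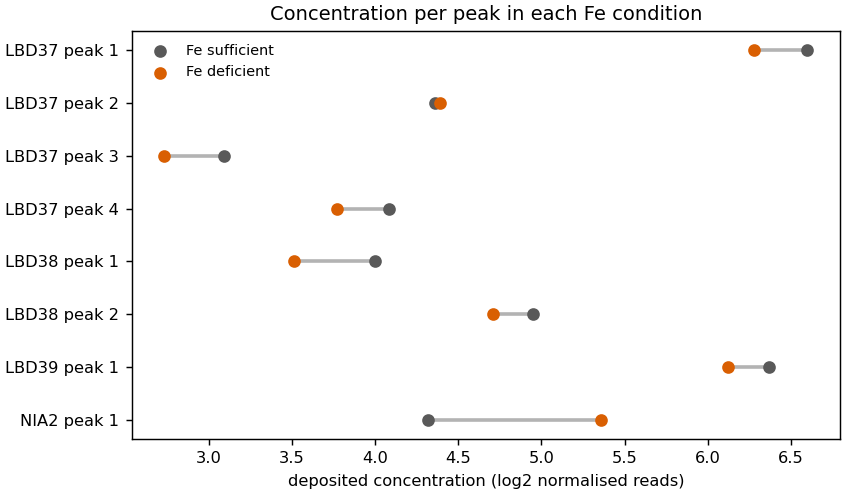
Deposited concentration (log2 of normalised reads, horizontal axis) of each member peak with sufficient Fe (grey) and deficient Fe (orange), numbered by position along the chromosome. The orange point is left of the grey one in 6 peaks, right of it by 0.03 in the second LBD37 peak, and by 1.04 in the NIA2 peak.

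Levels per length were closer together than reads per peak. Mean reads per kb of peak were 25.9 in the first LBD37 peak, 25.4 in the LBD39 peak, 23.3 in the NIA2 peak, 22.9 in the second LBD37 peak and 22.4 in the stronger LBD38 peak. The 3 weakest in reads per kb were the fourth LBD37 peak (19.5), the third LBD37 peak (16.7) and the weaker LBD38 peak (16.2), of which the latter pair lay near the median peak of the table (16.6). Neighbours in this order cannot be separated, since the table gives no spread per condition. Over the whole genome, 77 peaks had more reads per kb than the first LBD37 peak, 84 more than LBD39, 129 more than NIA2 and 171 more than the stronger LBD38 peak.

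The Fe conditions were next compared relative to the median peak, since most of the table was lower under deficiency. The median log2 change of all peaks was -0.46, and 79.8% of peaks were below 0 in the authors' deposited table, against 6 of the 7 LBD peaks. Relative to the median peak, LBD37 lay at 0.15, 0.49, 0.10 and 0.15 from the first to the fourth peak, LBD38 at -0.03 for the weaker and 0.23 for the stronger peak, and LBD39 at 0.21 (log2). The error implied by the deposited p-value, taken as 1 standard error, was 0.26 for the first LBD37 peak, 0.26 for LBD39 and 0.31 for the stronger LBD38 peak, as large as these values or larger. The LBD peaks were therefore within their errors of the median peak, apart from the second LBD37 peak, whose 0.49 exceeded its error of 0.40, a value taken from peaks of like concentration.

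Strong peaks leaned less toward sufficiency than the median peak, and against them the sign turned at LBD37 and LBD39. Among the 31 peaks within 0.5 (log2) of the first LBD37 peak in mean concentration, the median change was -0.03, and 23 had a higher change than it. Among the 36 such peaks for LBD39, the median was 0.085 and 26 had a higher change. Relative to these medians, the first LBD37 peak lay at -0.28 and LBD39 at -0.335. Both are further from 0 than their implied standard error of 0.26, unlike their values relative to the median of all peaks. The peaks of bHLH38, bHLH39 and bHLH101 are in both of these sets, and their part in the turned signs was not tested.

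The NIA2 peak lay above the median peak and above the median of the peaks of like concentration. Its log2 change was 1.5 relative to the median peak (implied standard error 0.38), a 2.83-fold difference, and 1.45 relative to the 308 peaks of like concentration, of which 14 had a higher change. Relative to the median peak, it was the 1 member peak with an FDR under 0.05, where 4.81% of the 1311 adjusted peaks were called higher and 0% lower. With the deposited FDR, 1.98% of those peaks were called higher and 0.0763% lower, and 0 of the 7 member peaks that were adjusted were among them. Among the 8, the NIA2 peak alone had a deposited unadjusted p under 0.05, where 3.55% of all peaks had one and were higher. NIA2 was chosen with this change known, so these references and calls describe the peak and do not test it.

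**Figure D3:**
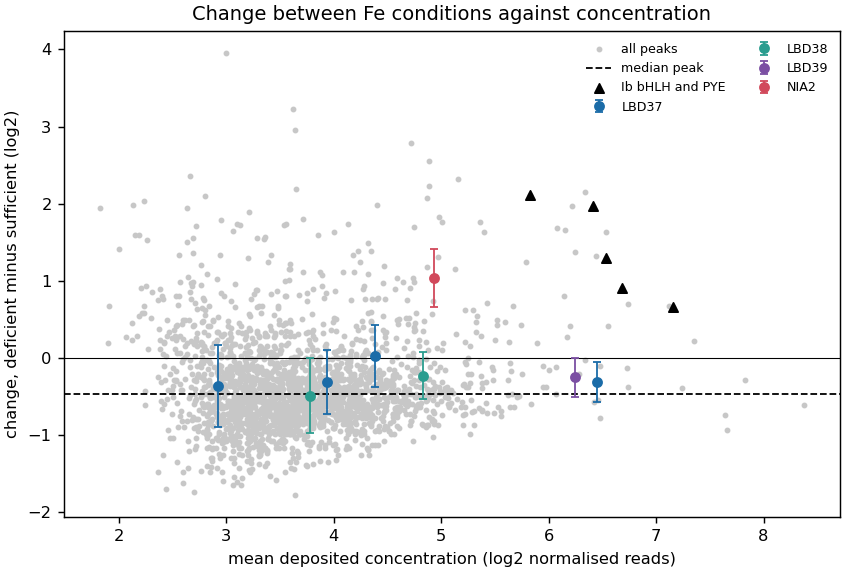
Log2 change (deficient minus sufficient, vertical axis) against mean deposited concentration (log2 of normalised reads, horizontal axis) for all 2366 peaks in grey, with member peaks in colour and bars of 1 implied standard error. The dashed line is the median peak at -0.46. The LBD peaks lie between -0.49 and 0.03, and the NIA2 peak is at 1.04. Triangles are the peaks of the Ib bHLH genes and PYE. Those of bHLH101 (0.91) and PYE (0.66) lie below the NIA2 peak and the others above it.

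Peaks of the Fe response show the scale of changes in the same table. The peak shared by bHLH38 and bHLH39, which encode Ib bHLH factors that drive Fe uptake, was 2.43 above the median peak (log2), and that of bHLH100, of the same group, 2.58. The bHLH101 peak, at another Ib gene, lay at 1.37 and the PYE peak, at a repressor of Fe homeostasis genes, at 1.12. The NIA2 value of 1.5 falls between these, below the other bHLH39 peak at 1.76, with implied standard errors of 0.28 to 0.38 throughout. These differences were not tested.

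The peaks with the most similar pair of concentrations, over the 2 Fe conditions, differed between the members. Nearest to the first LBD37 peak were those at ERF4, AT1G60160 and TGA1 (Euclidean distance 0.16 to 0.19 in log2 units), and nearest to the LBD39 peak those at FER4, a ferritin gene, JAZ1, a jasmonate repressor gene, and BRG3 (0.05 to 0.26). The stronger LBD38 peak was most like those at XYL1, MYBR1 and SAUR21 (0.01 to 0.07). The NIA2 peak was most like that of FED A, a ferredoxin gene also called FD2, then ORG1 and AT1G49790 (0.16 to 0.22). For the second LBD37 peak, 1 of the 3 most similar peaks was the one inside LBD41, which has 19.6 reads with sufficient Fe and 20.5 under deficiency in the authors' deposited table. This likeness rests on 2 values per peak.

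Beyond the window, the next peaks out were 4098 bp from LBD37 (log2 change -0.41), 4315 bp from LBD39 (-0.82) and 10232 bp from LBD38 (1.95) in the authors' deposited table. The last of these is weak, at 2.55 reads in sufficient and 9.78 in deficient roots, and its FDR was set to 1 in the authors' deposited table. On the far side of the first LBD37 peak, the nearest one is 20562 bp away at CGLD27, with a log2 change of 1.04 (FDR 0.183) in the authors' deposited table.

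Of the 42 LBD family genes in the annotation table, 7 (16.7%) had a peak within 1500 bp. Without the members these were 4 of 39 (10.3%), near the 11.8% of all protein-coding genes. Of the 6 class II genes, LBD37 to LBD42, the only one with peaks besides the 3 members, which were chosen for having them, was LBD41, known for its induction by low oxygen. Its stronger peak had 63.1 reads with sufficient Fe and 83.9 under deficiency in the authors' deposited table (log2 change 0.42, FDR 0.354). Relative to the median peak this was 0.88 with an implied standard error of 0.27 (FDR 0.0232 over the whole table). Against the 36 peaks of like concentration it was 0.335. The FDR of 0.357 there came from moving every peak of the table by their median, so it does not refer to those 36 peaks alone. Outside class II, peaks lay near ASL5 (log2 change 0.46), ASL15 (-0.22) and ASL1 (-0.87), all weak, with the FDR set to 1 in the authors' deposited table.

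The wider nitrogen pathway was read through lists of 91 genes. With the members left out, 37 of 87 genes (42.5%) had a peak within 1500 bp, against 11.8% of all protein-coding genes. The lists were chosen with earlier results of these data known. This share and those of each list below are therefore descriptions and were not tested. These 37 genes had 48 peaks, of which 43 were below 0 and 5 above. Their median log2 change was -0.585, against -0.46 over all peaks. Of the 48 peaks, 33 were adjusted by the deposited FDR. At 0.05, 0 of these 33 were called in either direction, where 2.06% of the adjusted peaks of the whole table were. At an unadjusted p under 0.05, 4 of the 48 were lower and 2 higher, where 10.1% and 3.55% of all peaks were. Relative to the median peak 2 of the 33 were called higher, against 4.81% of the adjusted peaks of the whole table, and 0 lower.

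Among regulators of the nitrate response, 16 of 24 genes outside the members (66.7%) had a peak, with 24 peaks in all. None of these peaks passed the deposited FDR of 0.05, and 4 had an unadjusted p under 0.05, all lower under deficiency, where 10.1% of all peaks were so by the authors' deposited values. The 4 were TGA1 (log2 change -0.57, FDR 0.266), TGA4 (-0.88, FDR 0.241), HHO3 (-1.07, FDR 0.268) and CPK32 (-1.11, FDR 0.247) in the authors' deposited table. Once recentred on the median peak, these changes shrank to -0.11, -0.42, -0.61 and -0.65, with implied standard errors of 0.27, 0.40, 0.53 and 0.51. The recentred FDR was 0.99 for each, so none of them was called lower than the median peak. The TGA1 peak is about as strong as the first LBD37 peak (mean concentration 6.42 and 6.45). The 31 peaks of like concentration to that LBD37 peak had a median change of -0.03. TGA1 was not centred on peaks of like concentration, so its -0.11 holds for the median of all peaks only. TGA1 and TGA4 encode bZIP factors, HHO3 a GARP-type repressor of nitrate-starvation genes, and CPK32 a calcium-dependent kinase that phosphorylates NLP7. The HHO3 and CPK32 peaks given here are not the strongest of their genes. Stronger peaks had log2 changes of -0.84 and -0.91 at HHO3 and -0.59 at CPK32 in the authors' deposited table. None of these stronger peaks had an unadjusted p under 0.05. The TGA1 peak, at 103 reads in sufficient and 69.1 in deficient roots in the authors' deposited table, had 20.3 mean reads per kb, against 25.9 in the first LBD37 peak.

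NLP7, the central activator of nitrate-responsive genes, had a peak inside the gene with 28.8 and 21.4 reads in the authors' deposited table (log2 change -0.43). Its relatives NLP6 (-0.42) and NLP8 (-0.67 at its stronger peak) had weaker ones in the authors' deposited table. The repressor genes HRS1 (-0.39 at its stronger peak), HHO1 (-0.57) and HHO2 (-0.36 at its stronger peak) had peaks too in the authors' deposited table. So did BT1 (-0.64) and BT2 (-0.54 at its stronger peak), which encode BTB and TAZ domain proteins, in the authors' deposited table. CIPK8 (0.01 at its stronger peak), ANR1 (-0.37), AFB3 (-0.77) and NAC4 (-0.87) complete the 16 genes in the authors' deposited table. The midpoint of the BT1 peak lay nearer to AT5G63170, and that of the NAC4 peak nearer to AT5G07670. Measured from the median peak, 9 of the 24 were above 0.

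Genes of the nitrate transport list had 6 peaks, all below 0, as were 79.8% of all peaks. Relative to the median peak, 2 of the 6 were above 0. The peak at NRT1.1, the dual-affinity nitrate transporter and sensor, had 57.3 reads with sufficient Fe and 41.1 under deficiency (log2 change -0.48, FDR 0.382) in the authors' deposited table. The peak at NRT2.1, the main high-affinity transporter, had 33.8 and 25.5 reads in the authors' deposited table (log2 change -0.41, FDR 0.441). The other 4, at NRT2.2 (-0.77), NRT2.5 (-0.90), NRT3.1 (-0.09) and CLC-A (-0.83) in the authors' deposited table, were weaker, and the NRT2.5 peak lay nearer to RSH2. Peaks were found for 6 of 18 genes of this list (33.3%), with a median log2 change of -0.625.

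Among nitrate reduction and assimilation genes, NIA1 is the closest relative of NIA2. It had a peak of 16.6 reads in sufficient and 13.4 in deficient roots, and one of 12.8 and 7.57 reads, in the authors' deposited table (log2 changes -0.31, FDR 0.615, and -0.77, FDR 1). Within 3000 bp, the distance used for NIA2, it had a further one of 38.9 and 27.7 reads in the authors' deposited table (log2 change -0.48, FDR 0.382). Relative to the median peak, these 3 NIA1 peaks were at 0.15, -0.31 and -0.02, each within its implied standard error of 0.34 to 0.50. The difference from NIA2, at 1.5, was not tested, because NIA2 was chosen with its value known. NIR1, which encodes nitrite reductase, had a weak peak 1473 bp away with 8.51 and 14.9 reads in the authors' deposited table (log2 change 0.81, FDR 0.348), or 1.27 relative to the median peak with an implied standard error of 0.50 (FDR 0.157). The peak near GLU1, a ferredoxin-dependent glutamate synthase gene, is the bHLH101 peak given above and lies nearer to bHLH101. It was 1 of the 2 list peaks called higher relative to the median peak. Against the 23 peaks of like concentration it was at 0.49 (FDR 0.144 with every peak moved by their median).

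The remaining assimilation genes with a peak were GLN1;1 (-1.03), GLN1;3 (-0.39), GLU2 (-0.66), GLT1 (-0.44), GDH2 (-0.61) and UPM1 (0.01) in the authors' deposited table. GLN1;1 and GLN1;3 encode cytosolic glutamine synthetases, and UPM1 makes a precursor of sirohaem. The midpoint of the GDH2 peak lay nearer to AT5G07430. In all, 9 of 20 genes of this list without NIA2 (45.0%) had a peak, 7 of the 10 peaks were below 0, and the median log2 change was -0.415.

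Ammonium transporter genes had peaks in 3 of 5 cases, AMT1;1 (-0.68 and -0.67), AMT1;3 (-0.83) and AMT1;5 (-0.80), in the authors' deposited table, with a weak peak shared by AMT1;3 and AMT1;5 (-0.29). None of the 7 genes for the molybdenum cofactor of nitrate reductase had a peak within 1500 bp. Of the 13 genes of the anthocyanin list, 3 had a peak. The LDOX peak, at an anthocyanidin synthase gene, had 51.3 reads with sufficient Fe and 89.9 under deficiency (log2 change 0.80, FDR 0.105) in the authors' deposited table, but its midpoint lies nearer to PGR5-LIKE A. It was the other list peak called higher relative to the median peak, at 1.26. Against the 41 peaks of like concentration it was at 0.90 (FDR 0.0447 with every peak moved by their median). The peaks of F3-prime-H (-0.75) and UF3GT (-0.58) were weak in the authors' deposited table, and the midpoint of the UF3GT peak lay nearer to AT5G54050.

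**Figure D4:**
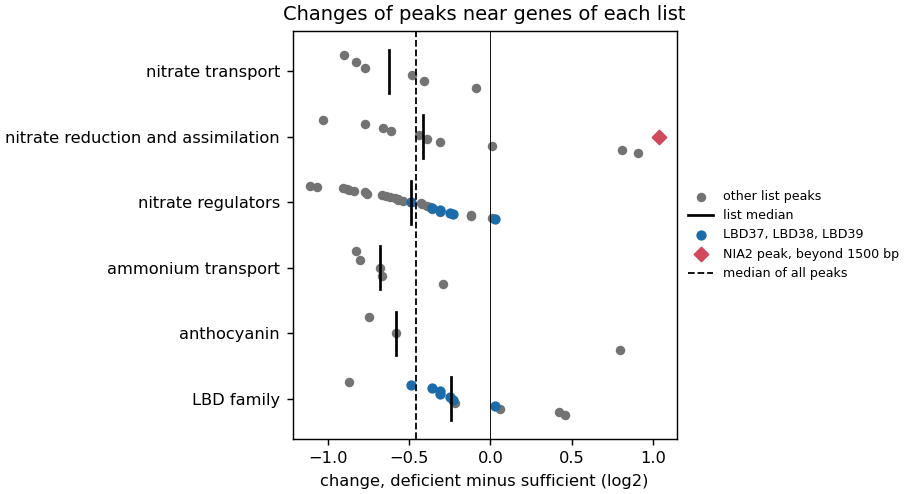
Log2 change (deficient minus sufficient, horizontal axis) of each peak within 1500 bp of a gene of each list, with black bars at the list medians and the dashed line at the median of all peaks (-0.46). LBD37, LBD38 and LBD39 are blue, and the NIA2 peak, beyond 1500 bp, is a red diamond at 1.04. Most nitrogen list peaks are below 0, and the highest of the reduction and assimilation list are those near GLU1 and NIR1 (0.81).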

How the data were processed

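The submitters' processing notes name TAIR10 and the tools Bowtie 1.2.2, MACS2, DiffBind, bedtools 2.26.0, Picard 2.4.1, SAMtools 1.3.1 and Trimmomatic 0.33. Settings, normalisation, use of the IgG libraries and calling per library were not given in the sources used here. Deposited concentrations and fold were read as log2 values: the fold equals sufficiency minus deficiency within 0.01, and its sign was reversed here. The deposited p-value and FDR are the authors' own. The FDR matched Benjamini-Hochberg over 1311 peaks and was 1 for the other 1055. With no value per library, no model was fitted to libraries.

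Changes were recentred on the median peak. A p-value followed from the error that the deposited p implies (normal approximation; for changes under 0.2, the median error of 101 peaks of like concentration) and adjusted over the 1311 peaks. Gene positions came from RefSeq TAIR10.1, used for names and neighbours; a peak counted when it overlapped the widened gene by at least 1 bp. All 96 list loci matched. Members and lists were chosen with earlier results of these data known. Named were the members, every listed or LBD gene with a peak, the nearest peaks by position, the 3 nearest by concentration for the strongest peak of each member, and the Fe comparison genes; others were chosen after their values were seen, as were the 3000 bp window for NIA1 and the centring of the LBD41, GLU1 and LDOX peaks on peaks of like concentration. Alternatives covered windows, thresholds and centres. Python 3.11.15, NumPy 2.4.6, pandas 2.3.3, SciPy 1.17.1 and Matplotlib 3.10.9 were used.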

Additional observations from a re-analysis of the deposited data

How the results depend on the processing

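For 18 results, 56 alternative values were computed. Of these, 42 stayed within 1.5 times a main count, within 1 implied standard error of a member's change, or on the same side of the threshold. These limits pass the loss of NIA2 given next, and also the third LBD37 peak at -0.36 without recentring, in place of 0.10. With a window of 1000 bp for every gene, or with the midpoint required inside the window, NIA2 had no peak and 3 members with 7 peaks were left. The number of nitrogen list genes near a peak, 40 with the members, was 34 to 45 over the alternatives. Of peaks lower under deficiency, a deposited FDR of 0.01 left 0 and 0.1 gave 6, in place of 1. Without recentring, 26 peaks were higher and 1 lower in place of 63 and 0, since every change moves down by 0.46. The change without recentring was then -0.31, 0.03 and -0.31 at the LBD37 peaks 1, 2 and 4 (in order of position), -0.23 at the stronger LBD38 peak, -0.25 at LBD39 and 1.04 at NIA2. Relative to peaks of like concentration, LBD37 peak 1 was at -0.28 and LBD39 at -0.335, so both signs turned; the cause was not tested. By the same centring, chosen after seeing the data, LBD41, GLU1 and LDOX were at 0.335, 0.49 and 0.90. Their FDRs there came from moving every peak by the same median. Only that of LDOX was under 0.05, which depends on this shift of all other peaks. No replicate could be left out, and no paired analysis was possible because the table holds no value per library. Depth is unknown, and peaks with an FDR of 1 were at most at a mean concentration of 3.52.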
